A study of Mus musculus with 4 samples.

Results

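The 10 genes described here encode calponins (Cnn1, Cnn2 and Cnn3), transgelins (Tagln and Tagln2), smooth muscle myosin and its partners (Myh11, Myl9 and Mylk), smoothelin (Smtn) and leiomodin 1 (Lmod1), proteins of the contractile apparatus of smooth muscle or close relatives of them. They were chosen by name for that role, with earlier results of these data known, so counts of members called are a description and not an independent test. All 10 were found among the 49585 genes of the count tables. Of these, 15078 genes, 9 of the 10 among them, had enough counts to be tested. The cells were C2C12, a mouse skeletal myoblast line of C3H origin, measured by strand-specific RNA sequencing while proliferating. In 2 libraries the cells carried a retrovirus that overexpressed C/EBPβ, a leucine-zipper transcription factor, and in 2 they carried the empty vector pLXSN. Both groups went through 7 days of selection in 1200 μg/ml G418 and grew for another 48 h as pools of selected cells, in medium that contained 10% serum for the line. The labels do not say whether the replicates came from separate transductions or cultures, so a p-value here reflects the spread between these samples alone, and that spread may be technical.

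Smooth muscle contracts when calcium and calmodulin activate myosin light chain kinase, which phosphorylates the regulatory light chain of myosin. Calponin and transgelin bind the actin filaments on which myosin pulls, and leiomodin nucleates such filaments. Many of these genes are classical targets of serum response factor (SRF), which binds CArG boxes, and of its partners of the myocardin family. Several of them, Tagln and Cnn1 included, are also known as markers of fibroblasts that become myofibroblasts. Cnn2, Cnn3 and Tagln2 are relatives with wide expression outside smooth muscle.

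Of the 9 tested genes 5 rose in C/EBPβ myoblasts, 0 fell and 4 were not called. The risers were Cnn1 and Lmod1, at 26.3-fold and 26.4-fold, Tagln at 4.21-fold, Mylk at 2.85-fold and Myl9 at 2.69-fold. The widely expressed Cnn2, Cnn3 and Tagln2 and the smooth muscle gene Smtn stayed within a log2 fold change of -0.23 to 0.16, and Myh11 had too few counts to be tested. Over all tested genes 24.9% were called, 14.1% higher and 10.8% lower, at an adjusted p under 0.05. The median log2 fold change was 1.43 over the 9 tested members. Over all tested genes it was 0.000545. In pooled cells, more RNA per cell and more cells of a kind cannot be told apart. Adjusted p-values of genes, unless another source is named, come from edgeR's quasi-likelihood test with Benjamini-Hochberg adjustment over all tested genes.

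The labels were checked first on Cebpb, the overexpressed gene, which had 483 and 473 CPM in C/EBPβ myoblasts and 85.0 and 76.8 CPM in empty vector myoblasts (log2 fold change 2.56, SE 0.09, adjusted p = 3.03e-06). CPM are counts divided by the library's total in units of 1000000, after TMM scaling. Reads of a vector-borne copy that map to Cebpb are part of this value. The libraries held 38656497 and 92027838 counts for C/EBPβ and 40912955 and 37566321 for the empty vector, so that 1 count was worth 0.0109 to 0.0266 CPM.

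The stretches of DNA before the start sites of the members are shown for 4 genes, because 2 of the risers (Myl9 and Lmod1) and the uncalled Cnn2 hold matches to the CArG box, to which SRF binds, and because the riser Cnn1 holds none. The sequences are from RefSeq on GRCm38.p6, whose promoter windows matched 8 of the 10 members and run from 250 bases before to 50 bases after the start. Tagln and Myh11 were not matched. Each line gives the 250 bases before the start on the plus strand, 5′ to 3′, at chr2:156775214-156775463 for Myl9, chr1:135324563-135324812 for Lmod1, chr10:79988350-79988599 for Cnn2 and chr9:22099003-22099252 for Cnn1. Capitals mark CArG boxes with at most 1 mismatch.
Myl9: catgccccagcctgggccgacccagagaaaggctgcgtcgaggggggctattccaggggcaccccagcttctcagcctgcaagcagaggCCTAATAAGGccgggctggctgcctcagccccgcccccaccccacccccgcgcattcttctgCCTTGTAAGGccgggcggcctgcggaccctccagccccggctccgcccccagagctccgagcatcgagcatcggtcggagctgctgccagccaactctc
Lmod1: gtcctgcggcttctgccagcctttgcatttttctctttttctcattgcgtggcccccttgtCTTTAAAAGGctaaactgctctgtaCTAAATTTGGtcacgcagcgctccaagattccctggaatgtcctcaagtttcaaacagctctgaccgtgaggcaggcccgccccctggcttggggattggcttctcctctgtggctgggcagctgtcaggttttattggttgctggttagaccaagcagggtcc
Cnn2: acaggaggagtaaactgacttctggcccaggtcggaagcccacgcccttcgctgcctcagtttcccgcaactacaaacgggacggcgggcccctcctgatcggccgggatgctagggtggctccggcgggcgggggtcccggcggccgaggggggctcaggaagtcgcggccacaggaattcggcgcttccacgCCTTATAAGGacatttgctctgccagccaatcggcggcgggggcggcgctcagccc
Cnn1: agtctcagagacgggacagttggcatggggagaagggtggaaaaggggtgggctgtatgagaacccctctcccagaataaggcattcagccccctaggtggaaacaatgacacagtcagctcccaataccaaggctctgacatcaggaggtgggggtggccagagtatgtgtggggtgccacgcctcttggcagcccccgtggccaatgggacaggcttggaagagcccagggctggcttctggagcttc

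The Myl9 window held an exact CArG box from -161 to -152 and another with 1 mismatch from -99 to -90, counted from the start. Lmod1 held a pair of matches with 1 mismatch, from -189 to -180 and from -164 to -155. Cnn2, whose RNA was not called, held an exact match from -56 to -47. An exact CArG box was present in 1.63% of 32851 promoter windows of the same length, and a match with at most 1 mismatch in 21.1%, on either strand. The C/EBP motif TTGCNNAA, present in 10.8% of all windows, was in none of the 8 windows of the members. The MCAT motif CATTCC, to which TEAD factors bind and which 14.7% of all windows held, was in those of Lmod1, Tagln2, Smtn and Mylk. The windows of Mylk and Smtn lie wholly inside the gene. That of Mylk is at chr16:34784700-34784999, while the gene begins at 34745210 on the plus strand. The Smtn window is at chr11:3539243-3539542, while that gene begins at 3540612 on the minus strand. For these genes the matches and their absence concern an internal start and not the outermost one. A match is a run of letters and not a site of binding, and a window without one says nothing of sites elsewhere in the gene.

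Among the calponins, which bind actin and restrain the ATPase of myosin, 1 of 3 rose. Cnn1, the smooth muscle calponin (ENSMUSG00000001349, chr9:22099216-22109630 on GRCm38, plus strand, protein-coding), had 61.6 and 33.0 CPM in C/EBPβ myoblasts and 2.38 and 1.16 CPM in empty vector myoblasts. The lower C/EBPβ library was 13.8 times the higher empty vector library. Its log2 fold change was 4.71 (SE 0.37, 95% interval 3.86 to 5.57, adjusted p = 8.39e-05), or 26.3-fold (14.5 to 47.4). With empty vector replicate 1, the higher control, left out, the fold was 40.3 (log2 fold change 5.33).

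Cnn2, the calponin of many nonmuscle cells (ENSMUSG00000004665, chr10:79988584-79996062, plus strand), had 530 and 470 CPM in C/EBPβ myoblasts and 494 and 445 CPM in empty vector myoblasts. The groups overlapped, and the log2 fold change of 0.09 had a 95% interval of -0.15 to 0.33 (adjusted p = 0.566). Cnn3, the acidic calponin (ENSMUSG00000053931, chr3:121426497-121458207, plus strand), had 645 and 662 CPM in C/EBPβ myoblasts and 734 and 665 CPM in empty vector myoblasts. The groups did not overlap, by a margin of 662 against 665 CPM, and the log2 fold change of -0.10 (95% interval -0.32 to 0.12) was not called (adjusted p = 0.512). Both intervals ended far below 3.86, where that of Cnn1 began.

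The transgelins are small actin-binding proteins with a calponin-like fold. Tagln, also called SM22α and among the earliest markers of smooth muscle (ENSMUSG00000032085, chr9:45929619-45936058, minus strand), had 434 and 239 CPM in C/EBPβ myoblasts and 101 and 58.8 CPM in empty vector myoblasts. Both C/EBPβ libraries were above both controls, and the lower of them was 2.37 times the higher control. The log2 fold change was 2.07 (SE 0.30, 95% interval 1.38 to 2.77, adjusted p = 0.00169). Tagln2, the transgelin of nonmuscle cells (ENSMUSG00000026547, chr1:172500047-172507380, plus strand), had 785 and 812 CPM in C/EBPβ myoblasts and 977 and 889 CPM in empty vector myoblasts. The C/EBPβ libraries lay below the controls without overlap. The log2 fold change of -0.23 (95% interval -0.45 to 0.00) was not called (adjusted p = 0.142), while the authors' deposited table gives -0.27 with an adjusted p of 0.0401.

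Lmod1, the smooth muscle leiomodin (ENSMUSG00000048096, chr1:135324807-135368065, plus strand), had 52.4 and 31.4 CPM in C/EBPβ myoblasts and 1.90 and 1.24 CPM in empty vector myoblasts. The lower C/EBPβ library was 16.6 times the higher control. The log2 fold change was 4.72 (SE 0.29, 95% interval 4.05 to 5.40, adjusted p = 2.58e-05). Lmod1 and Cnn1 stood at ranks 92 and 93 from the highest fold change of the 15078 tested genes, next to each other.

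Myl9, a regulatory light chain of smooth muscle myosin (ENSMUSG00000067818, chr2:156775420-156781658, plus strand), had 179 and 144 CPM in C/EBPβ myoblasts and 66.4 and 53.5 CPM in empty vector myoblasts. The groups were apart by 2.17 times, and the log2 fold change was 1.43 (SE 0.14, 95% interval 1.12 to 1.74, adjusted p = 0.00021). Mylk, the kinase that phosphorylates this chain (ENSMUSG00000022836, chr16:34745210-35002420, plus strand), had 6.53 and 5.22 CPM in C/EBPβ myoblasts and 1.87 and 2.22 CPM in empty vector myoblasts. The groups again did not overlap, and the log2 fold change was 1.51 (SE 0.20, 95% interval 1.06 to 1.96, adjusted p = 0.000899). Mylk encodes long and short forms of the kinase and the small protein telokin, which the count per gene does not separate.

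Myh11, the heavy chain of smooth muscle myosin and a late marker of the mature cell (ENSMUSG00000018830, chr16:14194527-14291408, minus strand), had 13 and 14 counts in C/EBPβ myoblasts and 1 and 1 in empty vector myoblasts. In CPM of the library total this is 0.336 and 0.152 for C/EBPβ and 0.0244 and 0.0266 for the empty vector. The 27 counts against 2 give a ratio of 8.11 with a 95% interval of 2.04 to 70.4, which covers counting error only and not the spread between replicates. Myh11 did not pass the filter on low counts and was the lowest member per exon length in both groups.

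Smtn, smoothelin, an actin-binding protein of contractile smooth muscle (ENSMUSG00000020439, chr11:3517523-3540612, minus strand), had 151 and 128 CPM in C/EBPβ myoblasts and 120 and 129 CPM in empty vector myoblasts. The groups overlapped, and the log2 fold change of 0.16 had a 95% interval of -0.07 to 0.39 (adjusted p = 0.277).

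**Figure D1:**
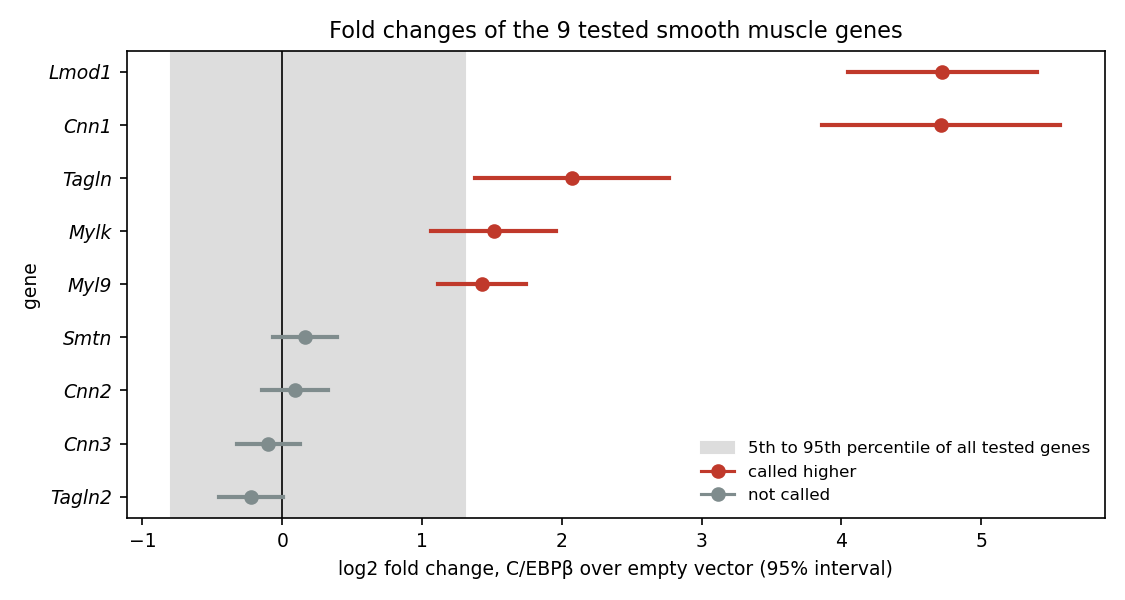
Log2 fold change of the 9 tested smooth muscle genes, C/EBPβ over empty vector (x axis), with genes down the page; points are edgeR estimates, bars 95% intervals, red genes were called higher and grey genes were not called. The 5 risers lie between 1.43 and 4.72, above the grey band of the 5th to 95th percentile of all tested genes (-0.80 to 1.31), and the 4 others lie between -0.23 and 0.16.

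The plot of fold changes sets the members against the spread of all tested genes, whose 5th and 95th percentiles were -0.80 and 1.31 on the log2 scale. Tagln, Mylk and Myl9 stood at ranks 393, 611 and 668 from the top. In the authors' deposited table, where 26.0% of 16596 genes with an adjusted p were called, the log2 fold changes were 4.60 for Cnn1, 4.56 for Lmod1, 1.91 for Tagln, 1.43 for Mylk and 1.37 for Myl9, each called. That table gives 1.70 for Myh11 with no adjusted p. It also gives 0.12 for Smtn, 0.05 for Cnn2 and -0.14 for Cnn3, none called.

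Levels of different genes were compared as TPM, counts per exon length as parts of 1000000. In C/EBPβ myoblasts the mean order was Tagln2 (1260 TPM), Cnn3 (707), Cnn2 (668), Tagln (555), Myl9 (457), Smtn (105), Cnn1 (56.8), Lmod1 (34.9), Mylk (1.90) and Myh11 (0.122). Neighbours in this order whose 2 libraries overlapped were Cnn3 with Cnn2, Cnn2 with Tagln, Tagln with Myl9, and Cnn1 with Lmod1. In empty vector myoblasts the order was Tagln2 (1458 TPM), Cnn3 (750), Cnn2 (621), Myl9 (168), Tagln (130), Smtn (92.9), Cnn1 (2.09), Lmod1 (1.29), Mylk (0.658) and Myh11 (0.0125), with overlap of Myl9 with Tagln and of Cnn1 with Lmod1. The relatives of wide expression thus headed the order of means in both groups, and Cnn1 and Lmod1, in spite of their folds, stayed below Smtn. In C/EBPβ replicate 1 alone, Tagln (714 TPM) stood above Cnn2 (706) and Cnn3 (695).

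**Figure D2:**
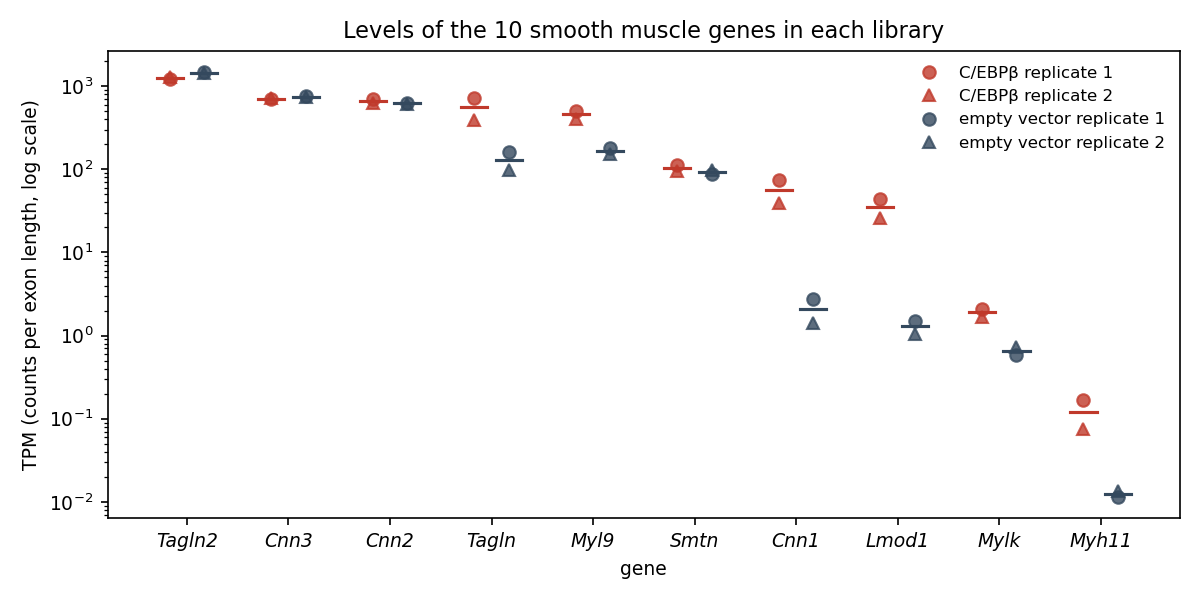
TPM of the 10 genes in each library on a log axis (y) by gene (x), with C/EBPβ in red left of empty vector in dark blue, circles for replicate 1, triangles for replicate 2 and bars for the mean of 2 libraries. Tagln2 averages 1260 TPM with C/EBPβ and 1458 TPM with the empty vector, while Cnn1 averages 56.8 TPM with C/EBPβ and 2.09 TPM with the empty vector, and Myh11 0.122 TPM with C/EBPβ and 0.0125 TPM with the empty vector.

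The make-up of the families to which the risers belong differed between the groups. Shares of the summed TPM of a family are given as a description, with no test. An exact permutation test of 2 libraries against 2 cannot go below a two-sided p of 0.33. Lmod1 made up 97.6% and 89.7% of leiomodin RNA in C/EBPβ myoblasts and 12% and 8.42% in empty vector myoblasts. Lmod3, a striated muscle form, made up 1.48% and 7.53% with C/EBPβ and 66.4% and 74.1% with the empty vector, where it led the family. Tagln made up 36.6% and 23.5% of transgelin RNA with C/EBPβ and 9.73% and 6.48% with the empty vector, and the remainder was nearly all Tagln2. The groups did not overlap in any of these shares.

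Cnn1 remained a minor calponin, with 5.00% and 2.86% of calponin RNA in C/EBPβ myoblasts and 0.197% and 0.106% in empty vector myoblasts. Among the regulatory light chains Myl9 had 30.0% and 25.8% with C/EBPβ and 12.6% and 12.1% with the empty vector, beside the nonmuscle chains Myl12a and Myl12b. Mylk had 19.6% and 12.6% of kinase RNA with C/EBPβ and 1.49% and 1.69% with the empty vector, while Mylk2, the skeletal muscle kinase, led in every library, with 72.1% and 81.8% in C/EBPβ myoblasts and 93.2% and 93.5% in empty vector myoblasts. The kinases together had 10.7 and 13.5 TPM with C/EBPβ and 39.2 and 43.5 TPM with the empty vector. The share of Mylk thus rose within a smaller total, while Mylk itself averaged 1.90 TPM with C/EBPβ and 0.658 TPM with the empty vector. The length used is that of all annotated exons of a gene together, which for Mylk holds exons of several forms. Myh11 reached at most 0.0253% of the smooth and nonmuscle heavy chains in any library, of which Myh9 made up 90.1% to 93.7%.

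**Figure D3:**
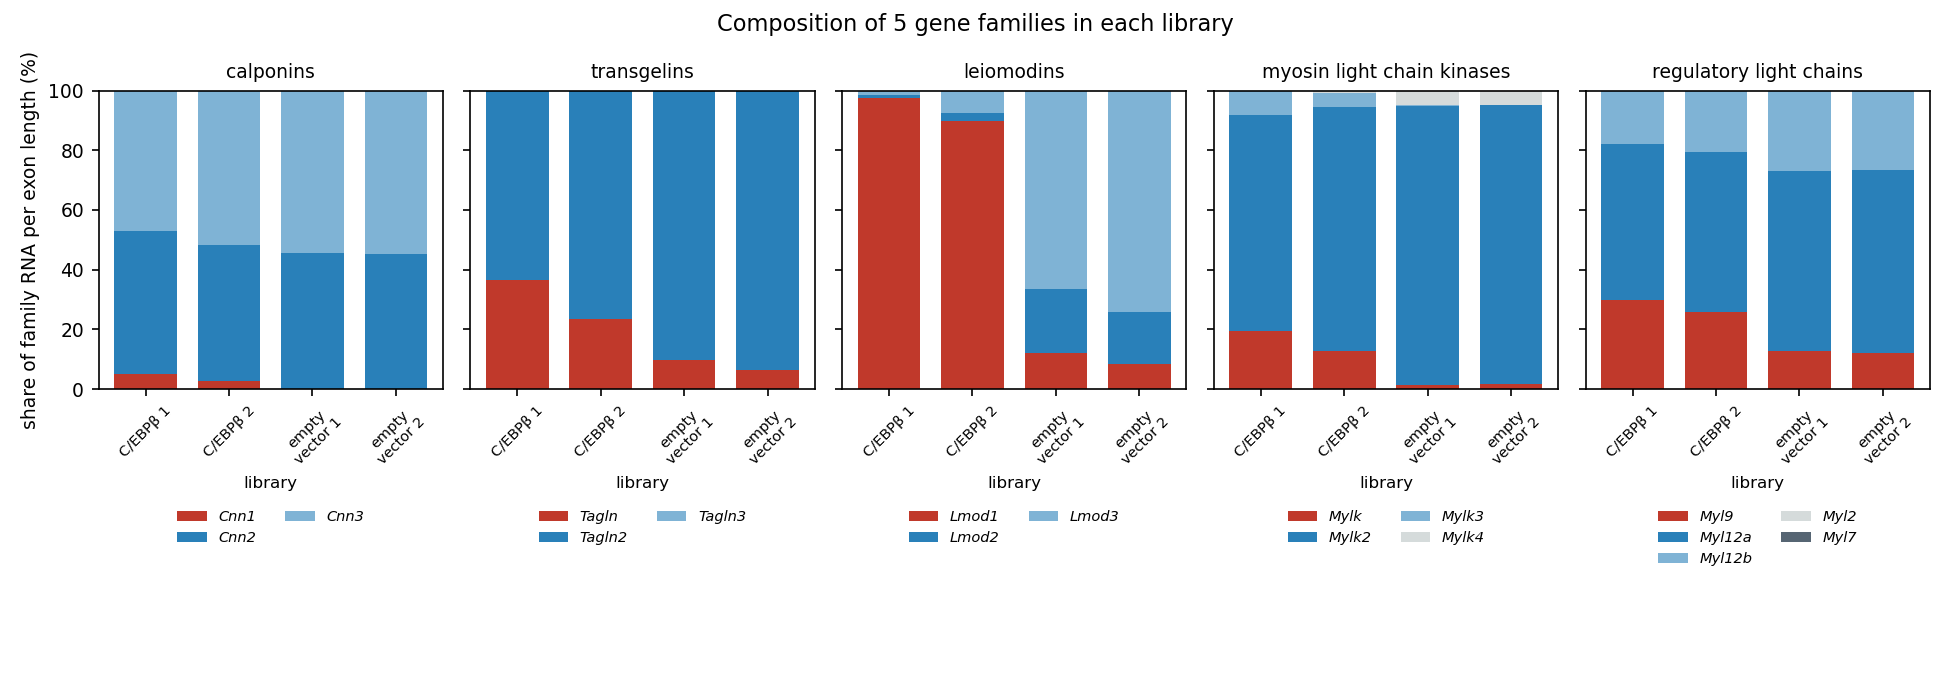
Share of each gene in the summed TPM of its family (y axis, %), with 1 stacked bar per library, C/EBPβ replicates left of empty vector replicates, for 5 families; red is the smooth muscle member. Lmod1 fills 97.6% and 89.7% of its family with C/EBPβ against 12% and 8.42% with the empty vector, while Cnn1 stays at or below 5.00% of calponin RNA in all 4 libraries.

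Replicate 1 was the higher one in both groups for 4 of the 5 risers, all but Mylk. Cnn1 was 1.87 times as high in replicate 1 as in replicate 2 of C/EBPβ and 2.05 times as high in replicate 1 of the empty vector. The ratios were 1.82 and 1.71 for Tagln and 1.67 and 1.53 for Lmod1, again with replicate 1 higher in both groups. These 3 exceeded a log2 difference of 0.5 in both groups, as did 254 tested genes in all (1.68%), 118 of which were called higher. The median absolute log2 difference between replicates over all tested genes was 0.108 for C/EBPβ and 0.154 for the empty vector. Myl9 had ratios of 1.25 and 1.24, and Mylk had 1.25 in C/EBPβ and 0.843 in the empty vector, so in opposite directions. The uncalled Cnn2 had 1.13 in C/EBPβ and 1.11 in the empty vector, so with replicate 1 higher in both groups as well. The uncalled Cnn3 and Tagln2 had 0.97 in C/EBPβ and 1.10 in the empty vector, and Smtn had 1.18 in C/EBPβ and 0.934 in the empty vector. The labels do not say that a replicate number marks a shared batch, and what the shared step comes from was not tested. In each group the difference between replicates was smaller than that between groups for all 5 risers.

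**Figure D4:**
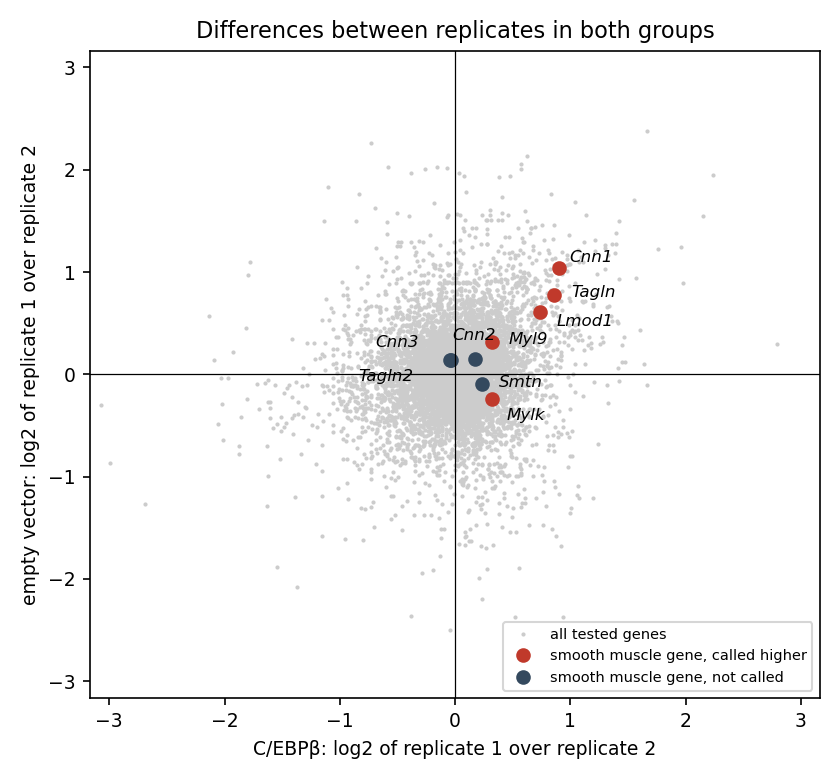
Log2 ratio of replicate 1 over replicate 2 in C/EBPβ myoblasts (x axis) and in empty vector myoblasts (y axis) for all tested genes (grey) and the 9 smooth muscle genes (red, called higher, and dark blue, not called). Cnn1, Tagln and Lmod1 lie above 0.5 on both axes, as do 1.68% of tested genes.

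Other genes of the smooth muscle cytoskeleton moved in both directions. Of 26 listed genes 25 were tested, and 11 rose and 3 fell, or 56% called against 24.9% of all tested genes, with a median log2 fold change of 0.27. Actg2, the enteric smooth muscle actin, rose to 358 and 228 CPM in C/EBPβ myoblasts, against 57.2 and 47.1 CPM in empty vector myoblasts (log2 fold change 2.49, adjusted p = 9.55e-05). Kcnmb1, the β1 subunit of the smooth muscle BK potassium channel, had 238 and 432 counts with C/EBPβ and 10 and 2 counts with the empty vector. The fit gave a log2 fold change of 5.14 (adjusted p = 8.31e-05). By counts per library total the ratio was 33.5 (95% counting interval 19.1 to 65.2), 96.3 (26.6 to 797) without empty vector replicate 1 and 21 (11.3 to 43.9) without empty vector replicate 2. Palld, the actin-bundling palladin, rose by a log2 fold change of 1.23 (adjusted p = 0.000572). The genes that fell were Itga7, the laminin receptor of muscle (-1.42, adjusted p = 0.000392), Pdlim3, an α-actinin partner (-1.28, adjusted p = 0.00315), and Des, the muscle intermediate filament desmin (-0.57, adjusted p = 0.00426), all 3 of which are also genes of skeletal muscle. Acta2, smooth muscle α-actin, was singled out after its values were seen as the best-known gene of the list. It rose to 3263 and 2312 CPM in C/EBPβ myoblasts, against 1324 and 883 CPM in empty vector myoblasts (log2 fold change 1.34, adjusted p = 0.00289). Reads shared by near-identical actin genes were not counted, so the values of single actins are uncertain. The list had 7 risers with empty vector replicate 2 left out.

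Of 14 listed genes for SRF, its cofactors and other regulators of smooth muscle genes, 13 were tested, 1 rose, 1 fell and the median log2 fold change was 0.02, so that 15.4% were called against 24.9% of all tested genes. Srf had 106 and 90.3 CPM in C/EBPβ myoblasts and 103 and 97.1 CPM in empty vector myoblasts (log2 fold change -0.03, 95% interval -0.25 to 0.19, adjusted p = 0.876). Myocd, the cofactor that drives the smooth muscle genes in cardiac and smooth muscle, had 3 and 8 counts with C/EBPβ and 8 and 9 with the empty vector, too few to test. Mkl1, an actin-regulated cofactor of SRF also named Mrtfa, rose by 0.44 on the log2 scale (adjusted p = 0.0153), a call that did not hold with empty vector replicate 1 left out (adjusted p = 0.0654) or with C/EBPβ replicate 1 left out (adjusted p = 0.168). Klf4, a repressor of smooth muscle genes in vascular cells, fell to 63.3 and 71.9 CPM with C/EBPβ, against 160 and 175 CPM with the empty vector (log2 fold change -1.31, adjusted p = 5.77e-05). The other tested factors were not called. Their log2 fold changes were -0.03 for Mkl2, 0.12 for Elk1, 0.02 for Elk3, 0.15 for Elk4 and -0.20 for Foxo4. For Tead1 the value was 0.12, for Yap1 0.18, for Wwtr1 -0.20, for Fhl1 -0.29 and for the cyclic GMP kinase Prkg1 0.81 (95% interval 0.18 to 1.43, adjusted p = 0.0659). Fhl1 was called lower by DESeq2 (adjusted p = 0.0362), with no filter on low counts (0.0336), with the replicate number as a block (0.0366) and without C/EBPβ replicate 1 (0.0473). Prkg1 passed the test with the replicate number as a block, with no filter on low counts, and with replicate 2 of either group left out.

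Early targets of SRF that respond to serum within minutes to hours, together with the cytoplasmic actins, were called in 3 of 13 cases, 2 higher and 1 lower, with a median of 0.16. This is 23.1%, against 24.9% of all tested genes. Ctgf, a matricellular protein, rose to 784 and 395 CPM in C/EBPβ myoblasts, against 166 and 91.2 CPM in empty vector myoblasts (log2 fold change 2.19, adjusted p = 0.00237). Junb, an AP-1 subunit, rose by 1.04 (adjusted p = 0.00342). Actg1, γ-actin, fell by 0.30 on the log2 scale (adjusted p = 0.0409), and this call was lost when any 1 of the 4 libraries was left out. With the replicate number as a block 5 genes of the list were higher and 2 lower. Of 19 genes of the TGF-β response, a program that also holds Acta2 and Ctgf, 16 rose, 0 fell and the median was 1.16, so that 84.2% were called. Tgfbi, a matrix protein named for its induction by TGF-β, rose by 5.05 on the log2 scale (adjusted p = 1.36e-05), with counts of 367 and 682 with C/EBPβ and 8 and 12 with the empty vector. Postn, periostin, rose by 4.14 (adjusted p = 1.93e-05) and Ltbp2, a matrix protein of the latent TGF-β binding family, by 1.54 (adjusted p = 0.000119).

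The machinery around light chain phosphorylation was tested in 23 genes, of which 3 rose and 5 fell (median log2 fold change -0.05). Thus 34.8% were called, against 24.9% of all tested genes, of which 14.1% were higher and 10.8% lower. Ppp1r14a, the smooth muscle inhibitor of myosin phosphatase known as CPI-17, had 73 and 72 counts with C/EBPβ and 6 and 10 with the empty vector (log2 fold change 2.63, adjusted p = 0.0103). Its value was 3.22 without C/EBPβ replicate 2, and with empty vector replicate 1 left out it was no longer called (2.25, adjusted p = 0.0879). Without C/EBPβ replicate 1 it was 1.94 (adjusted p = 0.00188). Ppp1r12b, a targeting subunit of the phosphatase (0.54, adjusted p = 0.028), and the calmodulin gene Calm2 (0.35, adjusted p = 0.035) were called in the 4 libraries together. Their adjusted p was 0.0877 for Ppp1r12b with empty vector replicate 1 left out and 0.0657 to 0.106 for Calm2 with empty vector replicate 2 or either C/EBPβ replicate left out. Myl6b, an essential light chain, fell by 0.89 on the log2 scale (adjusted p = 0.0043) and Ppp1r14b, a relative of CPI-17, by 0.51 (adjusted p = 0.0086). Rhoa (-0.32, adjusted p = 0.0316) and Calm3 (-0.28, adjusted p = 0.0467) were called lower as well, but neither with empty vector replicate 1 or either C/EBPβ replicate left out (adjusted p from 0.0673 to 0.219 for Rhoa and from 0.095 to 0.274 for Calm3). Calm3 was not called under either other filter on low counts (adjusted p = 0.0509 and 0.0571). As for the actins, reads that similar calmodulin genes share were not counted, and the values of each are uncertain.

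Relatives of the members outside the 10, most of them striated muscle forms, were tested in 5 of 10 cases, and 4 fell and 1 rose (median log2 fold change -2.03). Of all tested genes 10.8% were called lower and 14.1% higher. Mylk2 had 6.97 and 9.88 CPM in C/EBPβ myoblasts and 34.1 and 35.7 CPM in empty vector myoblasts (log2 fold change -2.03, adjusted p = 7.83e-05). Lmod3 fell by 2.49 on the log2 scale (adjusted p = 0.00196), and by 3.74 without C/EBPβ replicate 2. Mylk4 had 1 and 24 counts with C/EBPβ and 153 and 144 with the empty vector (log2 fold change -4.34, adjusted p = 0.000277). Its ratio by counts was 0.0505 (95% counting interval 0.0322 to 0.0761), and 0.00684 (0.000172 to 0.0384) without C/EBPβ replicate 2. Mylk3, the cardiac kinase, rose with 44 and 75 counts in C/EBPβ myoblasts, against 10 and 1 in empty vector myoblasts (log2 fold change 2.76, adjusted p = 0.00884). Its ratio by counts was 6.50 (3.50 to 13.4), 34.2 (6.02 to 1360) without empty vector replicate 1 and 3.73 (1.96 to 7.97) without empty vector replicate 2. Lmod2 fell by 1.94 on the log2 scale (adjusted p = 0.00423), and by 2.66 without C/EBPβ replicate 2. Thus in the leiomodin family the smooth muscle member Lmod1 rose while Lmod2 and Lmod3 fell. Among the light chain kinases Mylk rose while Mylk2 and Mylk4 fell, but the cardiac kinase Mylk3 rose as well.

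**Figure D5:**
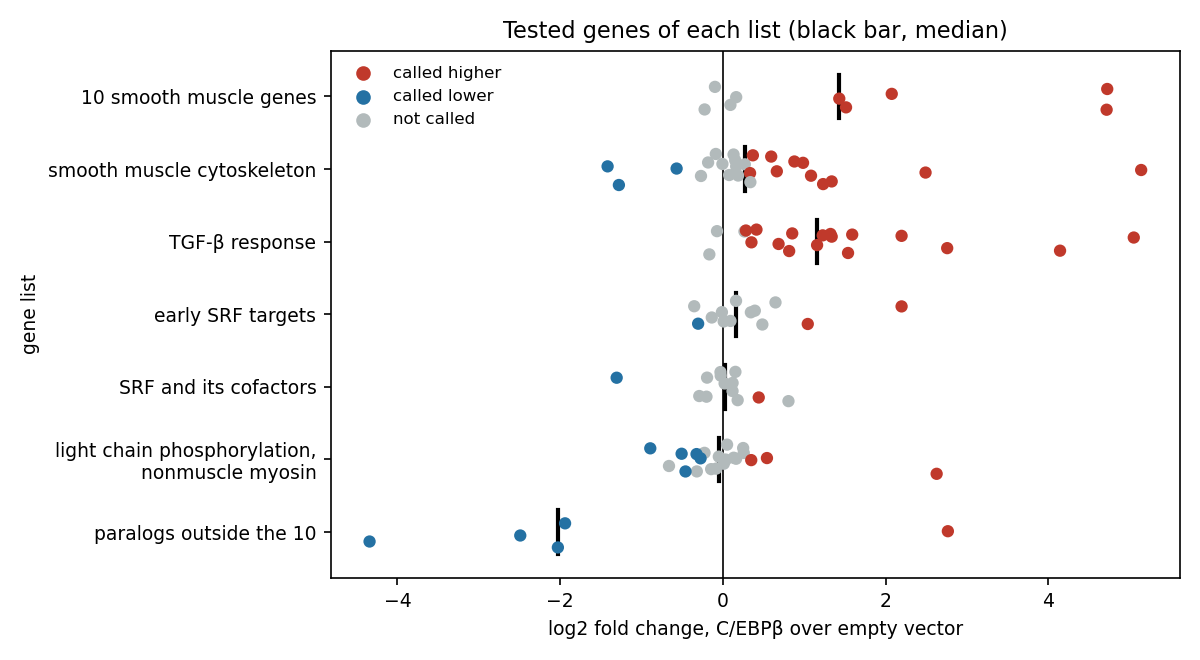
Log2 fold change, C/EBPβ over empty vector (x axis), of every tested gene of the 10 members and of 6 related lists (down the page), with red for genes called higher, blue for called lower, grey for not called, and a black bar at each list's median; the vertical scatter within a list has no meaning. The medians are 1.43 for the members, 0.27 for the smooth muscle cytoskeleton, 1.16 for the TGF-β response, 0.16 for early SRF targets, 0.02 for SRF and its cofactors, -0.05 for light chain phosphorylation and -2.03 for the relatives outside the 10.

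Markers of other cells were read beside these results, and their calls beside the 14.1% higher and 10.8% lower of all tested genes. Of 7 myoblast markers all were tested and called, 5 lower and 2 higher, and their summed level was 1610 and 1870 CPM in C/EBPβ myoblasts and 2710 and 2860 CPM in empty vector myoblasts. Sums of marker lists are in CPM of the library total, without TMM scaling, unlike the CPM of single genes. Myog, which starts terminal differentiation, fell to 5.32 and 10.9 CPM with C/EBPβ, against 61.0 and 51.4 CPM with the empty vector (log2 fold change -2.75, and -3.40 without C/EBPβ replicate 2). Cdh15, Chrna1 and Des fell too, while Pax7, a factor of satellite cells (0.94, adjusted p = 0.00248), and Myf5, an early factor of the lineage (0.60, adjusted p = 0.00179), rose. Myod1, the determining factor of the lineage, fell to 129 and 137 CPM with C/EBPβ, against 175 and 166 CPM with the empty vector. Of 10 smooth muscle markers, 7 of which are members, 8 were tested and 7 rose. The 9 markers of pericytes and other mural cells, 6 of them tested with 3 higher and 1 lower, summed to 686 and 577 CPM with C/EBPβ and 425 and 427 CPM with the empty vector. Pdgfrb rose by a log2 fold change of 1.28 (adjusted p = 0.000324). Kcnj8 rose 8.01-fold (adjusted p = 0.00394), and 18.3-fold without empty vector replicate 1 or 5.27-fold without empty vector replicate 2. Mcam was called higher (log2 fold change 1.06, adjusted p = 0.0349), but not by DESeq2 (adjusted p = 0.133), by limma-voom (0.0868), or without either empty vector replicate or C/EBPβ replicate 1 (0.0712 to 0.178). Anpep fell (-0.55, adjusted p = 0.00234), and Notch3 had -0.55 and was not called (adjusted p = 0.122), but was called lower under 5 alternatives, with the replicate block among them. Rgs5 had 9 and 6 counts with C/EBPβ and 0 in both controls, Abcc9 had 7 and 8 with C/EBPβ and 1 and 1 with the empty vector, and Higd1b had 0 in all 4 libraries. The 5 fibroblast markers, 3 of them tested and 2 higher, summed to 947 and 557 CPM with C/EBPβ and 142 and 118 CPM with the empty vector, with Pdgfra (log2 fold change 2.57) and Col1a1 (2.76) higher and Lum and Thy1 at 0 or 1 count. The 6 endothelial and 6 leukocyte markers, 2 tested and 1 higher in each list, summed to at most 1.24 CPM and 7.68 CPM in any library, with Emcn, Tyrobp, Adgre1 and Itgam at 0 in all. The part of other cells in the rises was not tested.

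The genes whose pattern over the 4 libraries was most like that of Lmod1 were found by the Euclidean distance of log2 CPM (pseudocount 0.05 CPM) centred on each gene's mean. Only tested protein-coding genes were compared, without those that carry provisional Gm or Rik names. Lmod1 was taken by its log2 fold change of 4.72, which is not told apart from the 4.71 of Cnn1 (SE 0.29 and 0.37), and without empty vector replicate 1 Cnn1 had 5.33, above the highest value of Lmod1 under any alternative, 5.06. The nearest genes were Cfap161 (distance 0.286), a cilium-associated gene, Ces1g (0.313), a carboxylesterase, Lpl (0.315), lipoprotein lipase, Cnn1 (0.316) and Nkd2 (0.324), a Wnt pathway inhibitor. Cnn1 was thus among the 5 closest of the genes compared. The distance includes the difference between the groups, so a gene of like fold lies close by that alone. In the empty vector libraries Cfap161 had 0.0729 and 0.0264 CPM and Ces1g 0.0972 and 0.0264 CPM. These levels are near the pseudocount, so the distances of Cfap161 and Ces1g depend on it.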

How the data were processed

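Messenger RNA of 4 libraries was compared, 2 of C/EBPβ and 2 of empty vector myoblasts, grouped by title. The deposited counts are, per the file headers, whole numbers of fragments per gene from featureCounts 1.5.1, run paired and reverse-stranded on GENCODE annotation, without multi-mapping or ambiguous reads. Genes with near-identical copies, such as actins, calmodulins and regulatory light chains, can therefore be under-counted. Per the submitters' processing notes, HISAT2 2.0.4 aligned the reads to GRCm38, featureCounts 1.4.6 counted them and DESeq2, its version not given in the sources used here, compared them. The 2 featureCounts versions differ, and which is right is not known. The authors' deposited table holds for each gene the base mean (signal), the log2 fold change, its error, the statistic (score) and the raw and adjusted p-value. It was described and not retested.

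Here, symbols from the reference annotation matched 49326 of 49585 identifiers. Genes were filtered with filterByExpr (minimum count 10, minimum total 15), scaled by TMM and tested in edgeR 4.0.16 under R 4.3.3 by quasi-likelihood, with no covariate, Benjamini-Hochberg adjustment and calls at 0.05. The code was tested on simulated data. Alternatives were library totals, DESeq2 size factors, DESeq2 1.42.0, limma-voom 3.58.1, other filters, the replicate number as a block and each library left out. Exact intervals cover counting error only. Folds are given for C/EBPβ over the empty vector. TPM and family shares used the exon lengths in the count files.

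The members and lists were chosen with earlier results of these data known. Named were all members, all SRF cofactors and, from each other list, up to 3 called genes per direction with the smallest adjusted p. A gene that this rule also names is not reported here. Of the 24 names around light chain phosphorylation 23 were matched. Cell marker lists are given by their sums and examples.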

Additional observations from a re-analysis of the deposited data

How the results depend on the processing

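All 9 tested members kept their direction and their side of the threshold under all 11 alternatives. The log2 fold changes of the risers ranged from 4.20 to 5.33 for Cnn1, 4.31 to 5.06 for Lmod1, 1.58 to 2.51 for Tagln, 1.35 to 1.67 for Mylk and 1.26 to 1.59 for Myl9, with a highest adjusted p of 0.0196. The number of members called was 5 under every alternative except 6 with no low-count filter and 6 without C/EBPβ replicate 2, where Myh11 was tested and called. With each library left out in turn, all called genes ranged from 2493 to 3462, against 3759 in the 4 libraries, and those called lower from 966 to 1386, against 1630. The lowest of each was without C/EBPβ replicate 1, and the cause was not tested. Same-numbered libraries deviated together only weakly (correlation 0.147) and the labels do not pair them; with the replicate block 4536 genes were called and still 5 members. Over 124 genes of all lists, 1350 values under alternatives included 52 lost calls, 48 gained calls and 0 reversals. By plain counts the share of Cnn1 among calponins was 3.91% against 3.93% per length, and that of Mylk among kinases 38.4% against 16.1%. Depth limits Myh11 and Myocd, and the few control counts of Kcnmb1, Mylk3, Ppp1r14a and Kcnj8.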

Other observations

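Genes within 100000 bases of a member were read as a check of whether the rises extended along the chromosome. Of 64 pairs of a member and a tested neighbour, 11 had a neighbour called higher and 6 a neighbour called lower, or 17.2% and 9.38%, near the 14.1% and 10.8% of all tested genes. Around Tagln 4 of 11 neighbours were higher, with log2 fold changes of 0.42 for Pcsk7, 0.43 for Bace1, 0.44 for Sidt2 and 1.19 for Gm48529. Pcsk7 and Gm48529 overlap Tagln on the opposite strand, and counting used strand. Whether reads of Tagln still entered the counts of Pcsk7 and Gm48529 was not tested. Around Cnn1, 1 of 7 neighbours was higher, Prkcsh at 0.32, and around Lmod1, 1 of 6, Rnpep at 0.35. Around Myl9, 0 of 9 were higher and 1 was lower, Dlgap4 at -0.32. Both tested neighbours of Mylk were uncalled. Near the uncalled Cnn3, Slc44a3 was called higher at a mean of 0.299 CPM with C/EBPβ and 0.0254 CPM with the empty vector, and A530020G20Rik at 3.51 CPM with C/EBPβ and 0.0243 CPM with the empty vector. These neighbours were singled out after their values were seen.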
